A study of Rattus norvegicus with 24 samples.

Results

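The genes described here are the MHC class II family of the rat lung, 9 genes taken by name from the 32489 gene IDs of the deposited expression table. They are the class II chains RT1-Da, RT1-Db1, RT1-Ba and RT1-Bb, the peptide editor RT1-DMa and RT1-DMb, the editor's modulator RT1-DOb, the invariant chain Cd74 and the transactivator Ciita. RT1 is the name of the rat MHC. All 9 passed the filter on low values and were tested.

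MHC class II molecules are pairs of an alpha and a beta chain that show peptides from engulfed material to CD4+ T cells. Dendritic cells, macrophages and B cells carry most of them, and alveolar type 2 cells of the lung carry them too. The invariant chain guides new class II pairs to the endosome, where DM exchanges its remnant for a peptide and DO holds DM back. Transcription of the family depends on CIITA, which interferon gamma induces and which docks on factors bound to the X and Y boxes of class II promoters.

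Male Wistar rats 5 to 6 weeks old and weighing 170 to 190 g received silica particles at 200 mg/mL or normal saline by instillation into the trachea. Silica is a mineral dust that inflames and scars the lung. Whole lungs were taken at day 14 or day 28, and poly-A RNA was sequenced from 6 rats in each of 4 groups: silica day 14, saline day 14, silica day 28 and saline day 28. No group without an instillation was analysed here.

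The 24 libraries held between 55.05 and 84.6 M (mega) reads, as recovered from the deposited values. Markers of alveolar type 2 cells were abundant in every group, with none of 9 at 0 and a summed level between 15429 and 32476 FPKM (fragments per kilobase of gene, scaled to library size). The libraries of saline day 28 stood apart in their mitochondrial reads: these made up 2.13% to 4.10% in silica day 28 and 2.77% to 8.93% in saline day 28, against 2.01% to 2.62% in silica day 14 and 2.15% to 3.92% in saline day 14. The 3 highest were saline day 28 replicates 1, 2 and 6, at 8.93%, 5.66% and 7.37%.

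The promoters show what the family shares on the DNA. Of the 9 genes, 7 had a promoter in the RefSeq table of build GRCr8, which runs from 250 bases before to 50 bases after each gene's start. The letters ACNGATG, part of the X box, and ATTGG, the core of the Y box, were searched on both strands, and the letters were chosen after these promoters had been read. The stretches of the 6 matched genes of the RT1 region follow, 5′ to 3′ on the gene's strand, with both sets of letters in capitals.

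RT1-Da, chr20:4515324-4515382, plus strand: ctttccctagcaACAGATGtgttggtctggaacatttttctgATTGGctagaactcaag

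RT1-Db1, chr20:4560226-4560283, minus strand: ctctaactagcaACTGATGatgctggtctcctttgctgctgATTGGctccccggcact

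RT1-Bb, chr20:4604163-4604220, minus strand: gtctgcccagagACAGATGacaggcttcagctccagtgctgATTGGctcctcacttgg

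RT1-DMa, chr20:4712383-4712441, minus strand: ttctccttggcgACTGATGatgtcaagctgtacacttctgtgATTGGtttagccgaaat

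RT1-DOb, chr20:4627590-4627645, minus strand: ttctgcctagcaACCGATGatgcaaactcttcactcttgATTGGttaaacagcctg

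RT1-Ba, chr20:4576954-4577030, plus strand: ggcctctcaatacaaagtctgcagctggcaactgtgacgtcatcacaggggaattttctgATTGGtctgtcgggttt

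The X letters followed by the Y letters 15 to 30 bases on were present in 5 of the 7 promoters, all shown above, with 20 to 23 bases between them. The pair stood in 42 of 33469 promoters of the table, a share of 0.125%. The X letters were in 10.2% of them and the Y letters in 37.5%. The 42 promoters with the pair included that of RT1-Db2, a further class II beta chain gene, and those of RT1-CE3, RT1-CE5, RT1-CE10 and RT1-M3-1, which belong to MHC class I. The promoters of RT1-Ba and Cd74 held the Y letters without these X letters. A match is a description of letters and not of a bound site.

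The 9 genes spanned a wide range of expression. Per gene length, Cd74 averaged 1421 FPKM over the 24 libraries, the 28th highest mean of all gene IDs, with a range of 893 to 2082 FPKM. RT1-Da, the alpha chain of the RT1-D molecule (the counterpart of human HLA-DR), averaged 462 FPKM with a range of 218 to 695 FPKM. RT1-Bb, the beta chain of RT1-B (the counterpart of HLA-DQ), averaged 169 FPKM and had the widest range of the 9 as a ratio, 8.05-fold, from 38.0 to 306 FPKM.

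Below them came RT1-Db1, the RT1-D beta chain, at a mean of 133 FPKM, and RT1-Ba, the RT1-B alpha chain, at 52.6 FPKM. The DM chains averaged 49.5 FPKM for RT1-DMb and 31.9 FPKM for RT1-DMa. RT1-DOb averaged 6.99 FPKM and Ciita 6.74 FPKM. Neighbours in this order kept it in 24 of 24 libraries, except that RT1-Bb exceeded RT1-Db1 in 19, RT1-Ba exceeded RT1-DMb in 14 and RT1-DOb exceeded Ciita in 12 of 24, so that the order of these 3 pairs was not fixed. RT1-Db1 has a close copy in RT1-Db2, which averaged 2.29 FPKM, and how the authors' counting shared reads between such copies is not given in the sources used here.

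**Figure D1:**
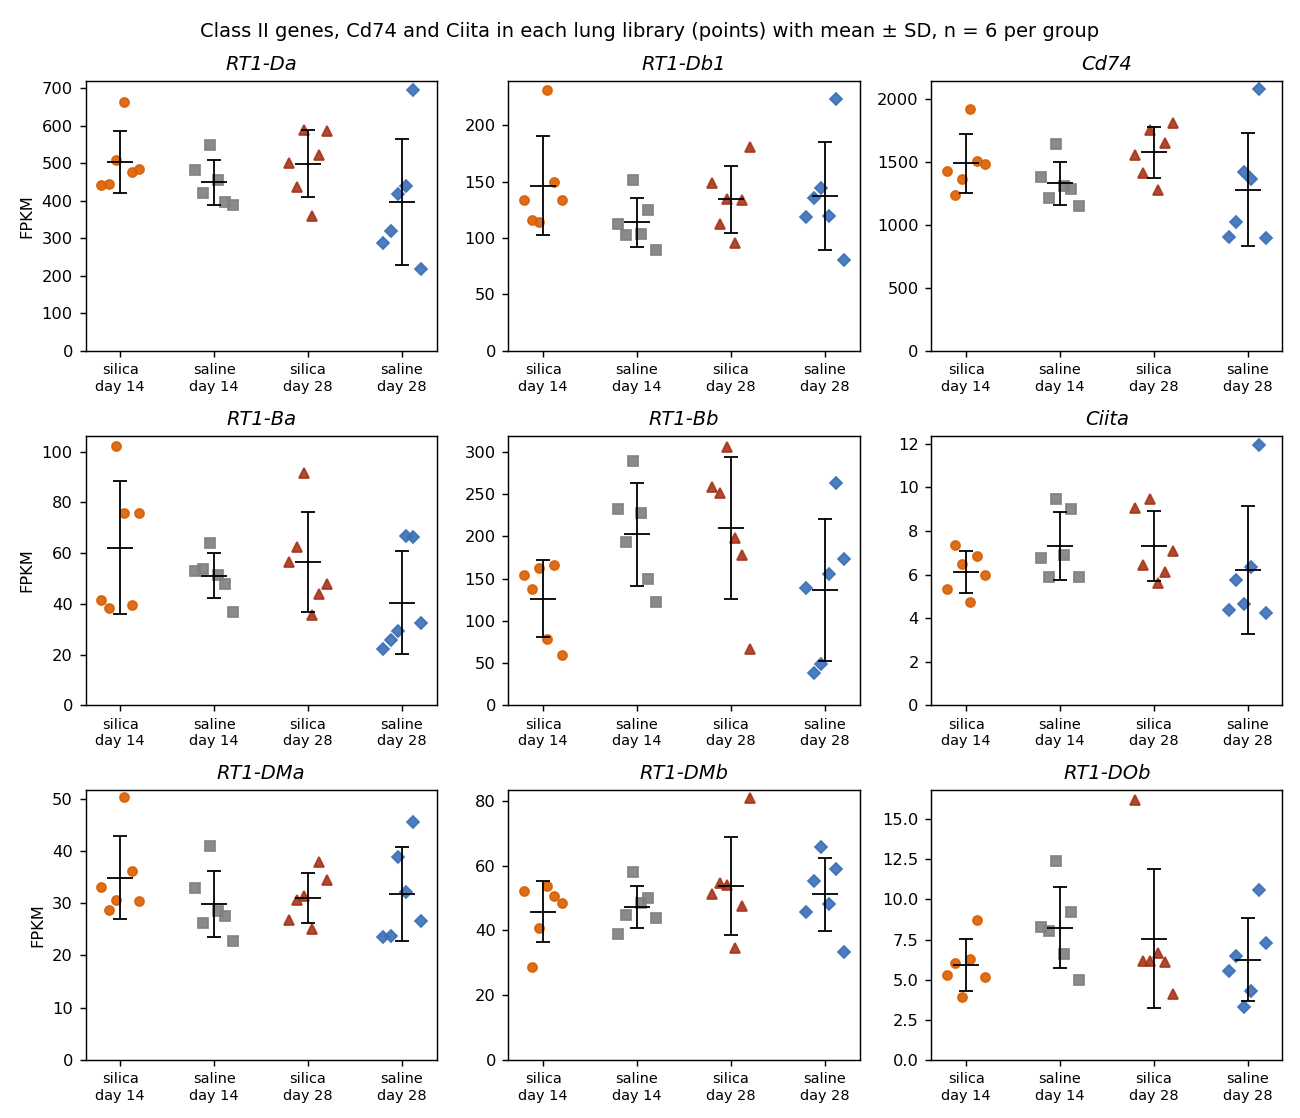
FPKM of the 9 genes in each of the 24 libraries, 1 panel per gene, with silica left of saline at each day; bars are the mean ± SD of 6 libraries and each vertical axis starts at 0. The groups overlap in every panel, and 1 saline day 28 library is the highest of all for Cd74 (2082 FPKM), RT1-Da (695 FPKM) and Ciita (12.0 FPKM).

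At day 14 the class II genes did not separate silica from saline lungs. None of the 9 was called by limma at a Benjamini-Hochberg adjusted p under 0.05, where 4.37% of the 20856 genes tested were called. None had an unadjusted p under 0.05 (20.3% of all genes did), and limma-voom on recovered reads called 0. The groups overlapped for all 9, where 5% of all genes had groups that did not overlap. In whole lung, fewer cells of a type and less RNA per cell cannot be told apart.

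Ciita had a lowest, median and highest value of 4.76, 6.22 and 7.37 FPKM in silica day 14, against 5.87, 6.83 and 9.45 FPKM in saline day 14. The ranges overlapped between 5.87 and 7.37 FPKM, and the log2 change, on the log2(FPKM + 1) scale, was -0.21 (SE 0.182, limma adjusted p = 0.554). RT1-Da had 442, 480 and 662 FPKM in silica day 14, against 388, 438 and 548 FPKM in saline day 14, a log2 change of 0.16 (SE 0.194, adjusted p = 0.695). Cd74 had 1236, 1458 and 1924 FPKM in silica day 14, against 1153, 1301 and 1642 FPKM in saline day 14, with a log2 change of 0.16 (SE 0.169, adjusted p = 0.65). For RT1-Da and Cd74 alike, 1 silica library, replicate 4, lay above all 6 saline libraries.

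RT1-Bb was the gene with the largest difference of the 9 at this day, and it was the lower one in silica. Its values were 59.3, 146 and 166 FPKM in silica day 14, against 123, 210 and 290 FPKM in saline day 14. Replicates 4 and 6 of silica, at 78.5 and 59.3 FPKM, lay below all saline libraries and the other 4 within their range. The log2 change was -0.72 with a 95% interval of -1.59 to 0.15 (adjusted p = 0.35). The remaining 5 genes had log2 changes between -0.41 for RT1-DOb and 0.34 for RT1-Db1, none of them past the threshold. The median over the 9 was 0.16, beside -0.0023 over all genes tested, with 5 above and 4 below 0.

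At day 28 all 9 genes had a mean log2 value that was higher in silica than in saline, and none of the differences passed the threshold; without the 3 saline libraries of high mitochondrial share 5 of the 9 changes were below 0. None of the 9 was called, where 13.8% of all genes were. That share itself turned on the fit: of the 20856 genes tested, 2872 were called here, 580 with only the day 28 libraries in the fit, 60 without the 3 saline libraries and 26 with the mitochondrial percent as a term. RT1-Da and Cd74 had an unadjusted p under 0.05, as 31% of all genes did, and limma-voom on recovered reads called 0. The groups overlapped for all 9, where 2.92% of all genes had groups that did not overlap. The median log2 change of the 9 was 0.26, beside -0.029 over all genes tested.

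Ciita had a lowest, median and highest value of 5.62, 6.75 and 9.47 FPKM in silica day 28, against 4.25, 5.20 and 12.0 FPKM in saline day 28. The silica range lay inside the saline range, and the log2 change was 0.26 (SE 0.182, limma adjusted p = 0.352). RT1-Da had 360, 511 and 587 FPKM in silica day 28, against 218, 368 and 695 FPKM in saline day 28, a log2 change of 0.41 (SE 0.194, adjusted p = 0.152). Cd74 had 1277, 1604 and 1810 FPKM in silica day 28, against 893, 1193 and 2082 FPKM in saline day 28, a log2 change of 0.36 (SE 0.169, adjusted p = 0.154). For these 3 genes the saline libraries held both the lowest and the highest value of the day.

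The RT1-B chains had the largest differences at day 28. RT1-Ba had 35.8, 52.2 and 91.7 FPKM in silica day 28, against 22.4, 30.9 and 66.7 FPKM in saline day 28, a log2 change of 0.54 (SE 0.284, limma adjusted p = 0.2). RT1-Bb had 66.2, 225 and 306 FPKM in silica day 28, against 38.0, 148 and 263 FPKM in saline day 28, a log2 change of 0.77 with a 95% interval of -0.10 to 1.64 (adjusted p = 0.218). For each of them 1 silica library lay above all saline libraries. The log2 changes of RT1-Db1 (0.01), RT1-DMa (0.00) and RT1-DMb (0.06) were near 0, and that of RT1-DOb was 0.20.

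**Figure D2:**
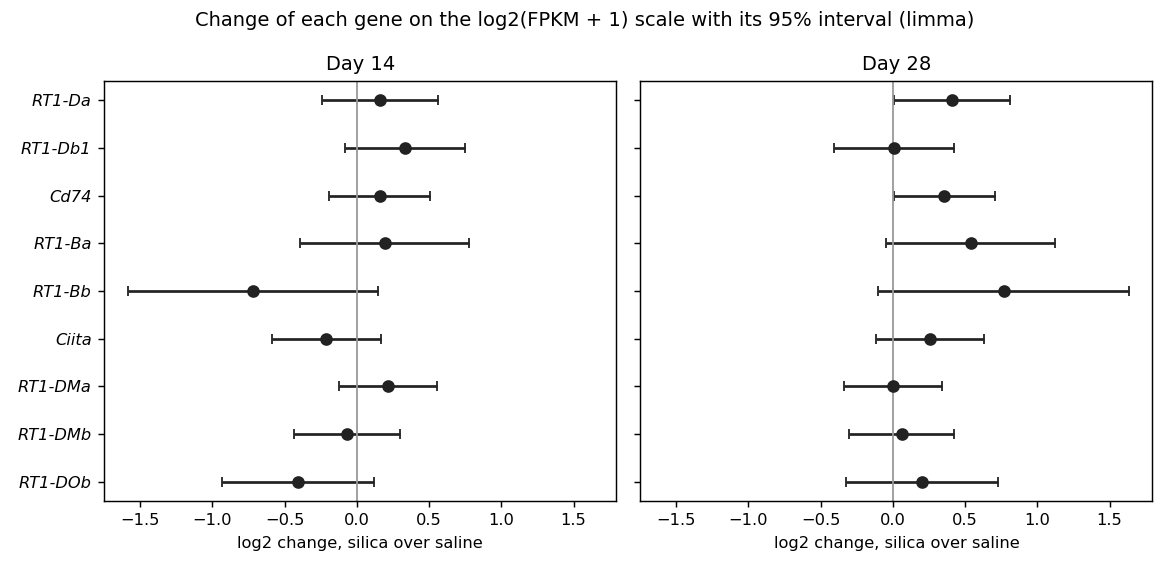
Log2 change of each gene, silica over saline, at day 14 (left) and day 28 (right), with its 95% interval from limma on the log2(FPKM + 1) scale. RT1-Bb has the widest interval at both days, with a change of -0.72 at day 14 and 0.77 at day 28, and the unadjusted intervals of RT1-Da and Cd74 at day 28 lie just above 0.

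The result at day 28 turned on a few saline libraries. Saline day 28 replicate 5 held 2082 FPKM of Cd74, 695 FPKM of RT1-Da and 12.0 FPKM of Ciita. Its summed T cell markers (163 FPKM), macrophage markers (327 FPKM) and dendritic cell markers (98.0 FPKM) were also the highest of its group, and their part in the result was not tested. Without this library limma called RT1-Da (log2 change 0.59, adjusted p = 0.0140), Cd74 (0.51, adjusted p = 0.0164) and Ciita (0.44, adjusted p = 0.0345), 3 of the 9, where 21.2% of all genes were called.

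The 3 saline libraries with the high mitochondrial share lay at the other end. Saline day 28 replicates 1, 2 and 6 held 908, 1023 and 893 FPKM of Cd74 and 286, 319 and 218 FPKM of RT1-Da, the lowest values of both genes in the study. Their summed T cell markers, 50.4, 74.7 and 80.5 FPKM, were also the 3 lowest of the 24 libraries. Their summed macrophage markers, 156, 198 and 184 FPKM, were the lowest of their group. Summed dendritic cell markers were 69.5, 86.2 and 68.0 FPKM in these libraries, with replicate 2 above replicate 4 (74.7 FPKM). Summed B cell markers were 26.8, 48.8 and 34.3 FPKM, with replicate 2 the highest of its group, above replicate 5 (47.7 FPKM). The part of these cells in the result was not tested. Without these 3, the log2 change at day 28 was -0.03 for RT1-Da (limma adjusted p = 0.952), -0.02 for Cd74 (adjusted p = 0.963), 0.01 for Ciita (adjusted p = 0.991) and 0.58 for RT1-Bb (adjusted p = 0.636). With the mitochondrial percent as a term of the fit these changes were -0.02, 0.01, 0.09 and 0.80. What the mitochondrial share reflects was not tested.

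The difference of the silica effects, day 28 minus day 14, asked whether the response moved between the days. None of the 9 genes was called, where 9.93% of all genes were, and limma-voom on recovered reads called 0. RT1-Bb alone of the 9 had an unadjusted p under 0.05, as 29% of all genes did, with a difference of 1.49 (SE 0.594, adjusted p = 0.103): its silica effect was 0.77 at day 28 and -0.72 at day 14. The next largest were RT1-DOb at 0.61 and Ciita at 0.47. RT1-Bb passed the threshold without silica day 28 replicate 6 (1.79, adjusted p = 0.0405), where 11% of all genes were called. Without saline day 28 replicate 5, RT1-Bb (1.73, adjusted p = 0.0434) and Ciita (0.65, adjusted p = 0.0323) passed it, where 15.8% of all genes were called. Without the 3 saline libraries of high mitochondrial share the difference was 1.30 for RT1-Bb (limma adjusted p = 0.265), 0.22 for Ciita (adjusted p = 0.696) and -0.19 for RT1-Da (adjusted p = 0.679), with 8 of all genes called. With the mitochondrial percent as a term it was 1.52 for RT1-Bb (adjusted p = 0.279) and 0.32 for Ciita (adjusted p = 0.604), with 2 of all genes called.

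Between the days, no gene of the 9 passed the threshold in either treatment group. In silica lungs, day 28 against day 14, none of the 9 was called, where 0.00479% of all genes were, the groups overlapped for all 9, where 0.686% of all genes had groups that did not, and the log2 changes ran from -0.15 for RT1-DMa to 0.68 for RT1-Bb. In saline lungs, day 28 against day 14, none was called, where 25.2% of all genes were, the groups overlapped for all 9, where 8.46% of all genes had groups that did not, and the log2 changes ran from -0.80 for RT1-Bb to 0.22 for RT1-Db1. None of the 9 had an unadjusted p under 0.05 in either contrast, where 8.81% of all genes did in silica and 38.5% in saline, and limma-voom on recovered reads called 0 in both. Without saline day 28 replicate 5, RT1-Da (-0.45, adjusted p = 0.0402) and Ciita (-0.45, adjusted p = 0.024) were called in the saline contrast, where 30.4% of all genes were. Without the 3 saline libraries of high mitochondrial share the changes in that contrast were 0.17 for RT1-Da (limma adjusted p = 0.595), 0.27 for Cd74 (adjusted p = 0.349) and -0.01 for Ciita (adjusted p = 0.982), and 361 of all genes were called.

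The authors' deposited table gives FDR values for 3 comparisons, and 0 of the 9 genes had an FDR under 0.05 in any of them. The lowest FDR of the 9 in the authors' deposited table was 0.0974 between silica and saline at day 14, 0.305 between silica and saline at day 28 and 0.417 between the silica groups of the 2 days. In the authors' deposited table, 11.1%, 13.3% and 0.642% of the genes with an FDR were under 0.05 in these comparisons, in the same order.

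Although no difference between groups passed the threshold, a part of the 9 genes moved together from lung to lung. Correlations were computed on log2(FPKM + 1) after each group's mean had been subtracted, over 24 libraries, with 100000 shuffles of the libraries within their groups. Among the 28 pairs of the 8 genes other than Ciita, a family added after the data had been seen, 12 had an adjusted p under 0.05 by Pearson's r and 12 by Spearman's rho. The share past the threshold among pairs of other genes is not given, here or for Ciita below. Whether such relations are particular to this family was not tested. Each point is 1 library of whole lung, and the part of cell makeup in these relations was not tested.

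Cd74 and RT1-Da were the closest pair, with r = 0.96 and rho = 0.96 (permutation p = 1e-05 for r, the smallest the shuffles can give, and 9.33e-05 adjusted), and r = 0.94 without the 2 libraries farthest from the median. Cd74 also followed RT1-DMa (r = 0.89) and RT1-Db1 (r = 0.86). Within each of the 4 groups of 6, r between Cd74 and RT1-Da was 0.87 in silica day 14, 0.93 in saline day 14, 0.99 in silica day 28 and 0.97 in saline day 28. The chains of the RT1-D molecule followed each other at r = 0.84, and their FPKM ratio, RT1-Da to RT1-Db1, stayed between 2.36 and 4.47 in the 24 libraries.

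RT1-Bb was past the threshold with none of the other 7 genes, at r between -0.38 and 0.48. These values over 24 libraries cover groups that differed: in silica day 14 r was -0.51 with Cd74, -0.47 with RT1-Da, -0.29 with RT1-DMa and -0.43 with RT1-Ba, against 0.84, 0.94, 0.88 and 0.92 in saline day 14. In silica day 28 r with Cd74 was -0.38, against 0.29 in saline day 28, and the difference between groups was not tested. With its own partner RT1-Ba it had r = 0.35 (permutation adjusted p = 0.278), and the FPKM ratio of RT1-Ba to RT1-Bb ran from 0.161 to 1.28 over the 24 libraries. That ratio had a lowest, median and highest value of 0.238, 0.455 and 1.28 in silica day 14, against 0.221, 0.253 and 0.322 in saline day 14. It was 0.180, 0.248 and 0.722 in silica day 28, against 0.161, 0.340 and 0.681 in saline day 28. RT1-Bb lay apart below the rest in some libraries of every group but saline day 14, as described below. RT1-DOb, which is known chiefly from B cells, was past the threshold with none of the other 7 either.

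**Figure D3:**
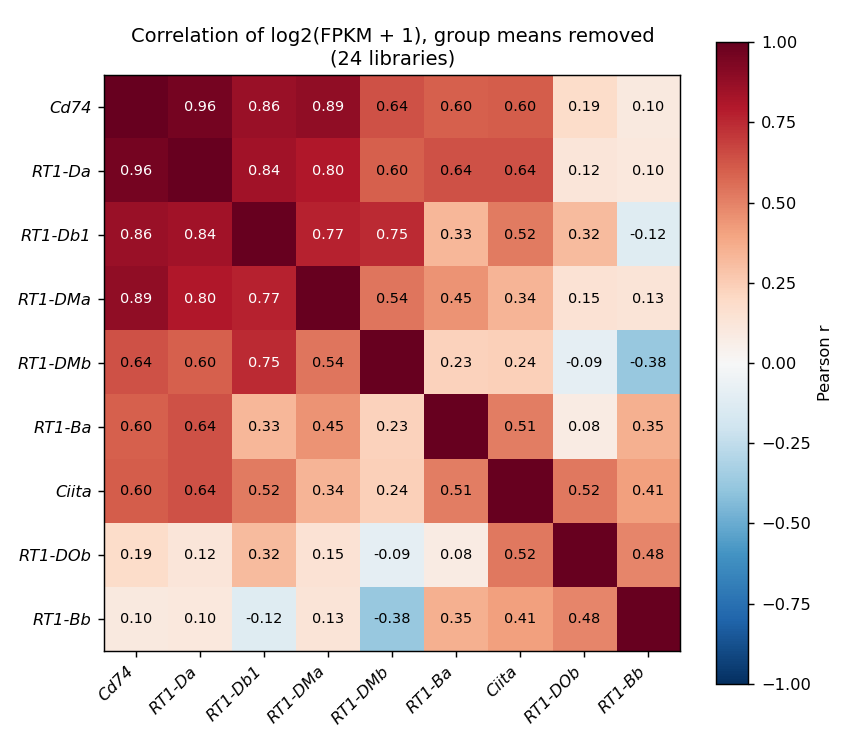
Pearson r between each pair of the 9 genes over 24 libraries, on log2(FPKM + 1) with group means removed. Cd74, RT1-Da, RT1-Db1 and RT1-DMa form a block with r of 0.77 or more, while RT1-Bb has r between -0.38 and 0.48 with the genes other than Ciita.

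**Figure D4:**
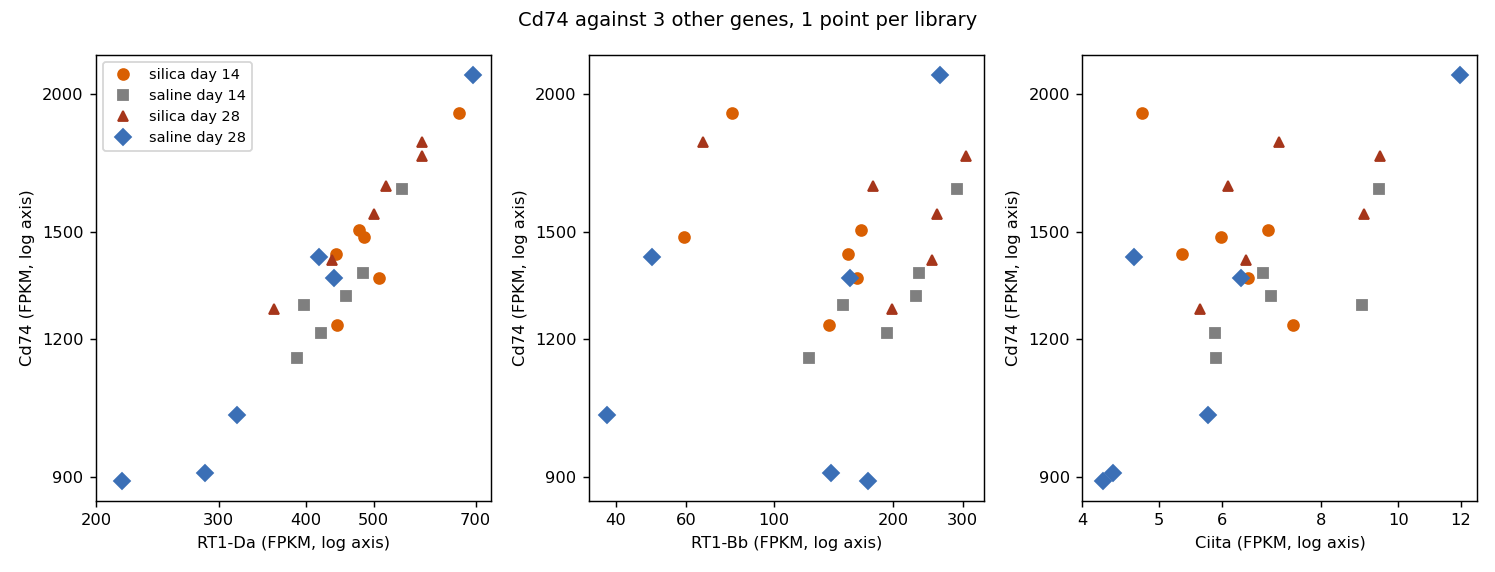
Cd74 against RT1-Da, RT1-Bb and Ciita in the 24 libraries, in FPKM on log axes, with 1 point per library and groups by colour and shape. Cd74 rises with RT1-Da in all 4 groups (r of 0.87 or more within each), whereas it rises closely with RT1-Bb in saline day 14 (r = 0.84) but not in the other 3 groups (r from -0.51 to 0.29). The libraries set apart below the rest in RT1-Bb were all in those 3 groups, and their part in these values was not tested.

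Ciita, the transactivator, had lower correlations with its target genes than the closest of these had with each other, a contrast that was not tested. Of its 8 relations, all positive, 4 had a permutation adjusted p of 0.0472 by Pearson's r: those with RT1-Da (r = 0.64), Cd74 (r = 0.60), RT1-DOb (r = 0.52) and RT1-Ba (r = 0.51). By Spearman's rho none of the 8 passed. Without the 2 libraries farthest from the Ciita median, r was 0.36 with RT1-Da, 0.30 with Cd74 and 0.29 with RT1-Ba, so that these 3 relations rest on those libraries. The r with RT1-DOb was then 0.46, but its rho over the 24 libraries was the lowest of the 4, at 0.32 (permutation adjusted p = 0.219). Each of the 4 relations was not past the threshold in 16 alternative settings. Within groups of 6, r between Ciita and Cd74 was -0.81 in silica day 14, 0.76 in saline day 14, 0.56 in silica day 28 and 0.85 in saline day 28, and the difference between groups was not tested.

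RT1-Bb was lowest in the same libraries as 1 class I gene, a comparison made after the values had been seen. Of 16546 genes, LOC103690108 had the pattern most like it, and the deposited table describes that gene as MHC class I. In RT1-Bb 5 libraries lay apart below the rest, and the same 5 were the lowest in LOC103690108, so no correlation is given. In LOC103690108, saline day 28 replicate 3 (12.1 FPKM) lay between the others of the 5 and the next value (28.7 FPKM). LOC103690108 had 0.908 and 0.975 FPKM in silica day 14 replicates 4 and 6, where RT1-Bb had 78.5 and 59.3 FPKM. It had 0.754 FPKM in silica day 28 replicate 6, where RT1-Bb had 66.2 FPKM. It had 0.258 and 12.1 FPKM in saline day 28 replicates 2 and 3, where RT1-Bb had 38.0 and 49.3 FPKM. In the other 19 libraries LOC103690108 had 28.7 FPKM or more and RT1-Bb 123 FPKM or more. Both genes belong to families of similar copies, so that the division of reads among copies is uncertain for them. The cause of the shared pattern was not tested. The RT1-Bb changes between groups, its correlations and its ratio to RT1-Ba carry the same uncertainty about the division of reads. The ratio of RT1-Ba to RT1-Bb was 0.964 and 1.28 in silica day 14 replicates 4 and 6. It was 0.722 in silica day 28 replicate 6, and 0.681 and 0.596 in saline day 28 replicates 2 and 3. Silica day 14 replicate 3, not among the 5, had 0.630. None of the 5 was a saline day 14 library.

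**Figure D5:**
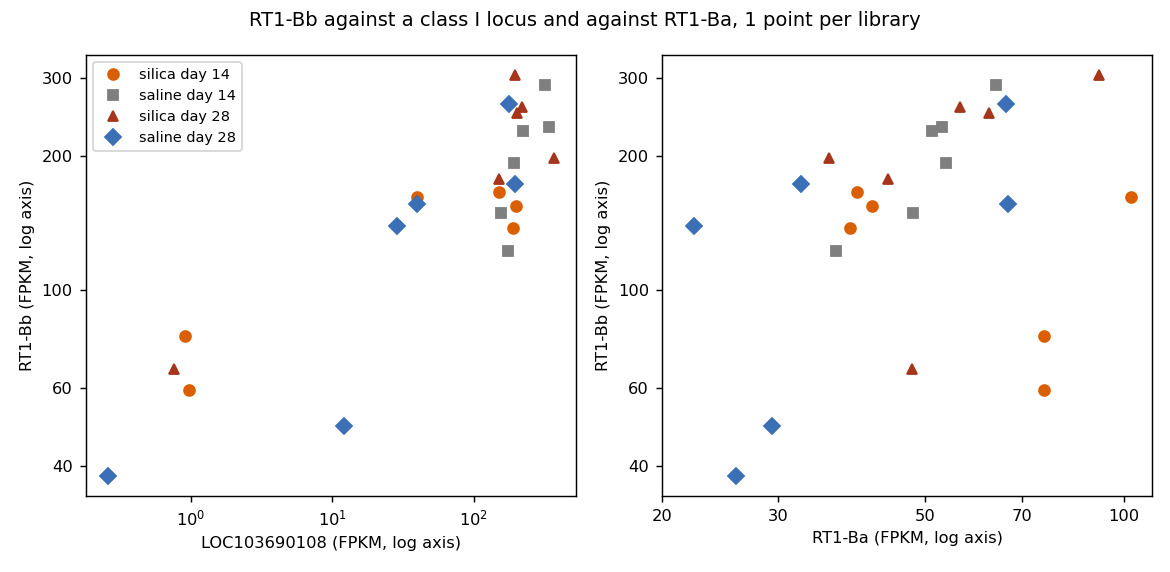
RT1-Bb against the class I gene LOC103690108 (left) and against its partner chain RT1-Ba (right), in FPKM on log axes, with 1 point per library. The 5 libraries lowest in RT1-Bb (38.0 to 78.5 FPKM) are also the 5 lowest in LOC103690108 (0.258 to 12.1 FPKM), but not in RT1-Ba.

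By likeness to the mean of the 9 standardised genes, over the 24 libraries with group means removed, the 5 closest of 13508 other genes were Calhm6 (r = 0.83), Ifi30 (r = 0.82), Cotl1 (r = 0.81), Cd2 (r = 0.81) and Slamf9 (r = 0.81). Ifi30 encodes a lysosomal thiol reductase of the class II route and Cd2 a T cell surface protein. The 5 closest to Ciita alone were Irf8 (r = 0.80), Slamf1, Mcm5, Cxcl9 and Mki67 (r = 0.76 each). Irf8 encodes an interferon regulatory factor of myeloid cells and B cells, Cxcl9 an interferon gamma-induced chemokine, and Mcm5 and Mki67 proteins of cycling cells.

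Above the class II genes stands the chain from interferon gamma to CIITA. Of its 11 listed genes, all tested, 2 rose and none fell at day 14, and 1 rose and 1 fell at day 28, beside 4.37% of all genes called at day 14 and 13.8% at day 28, which are also the shares for the lists that follow; the median log2 change was -0.03 at day 14 and 0.08 at day 28. Socs1, which damps JAK signalling, rose at both days: it averaged 5.96 ± 1.29 FPKM in silica day 14 and 2.49 ± 0.568 FPKM in saline day 14 (SD, n = 6 each; limma log2 change 0.99, adjusted p = 4.63e-05). It averaged 7.17 ± 0.724 FPKM in silica day 28 and 4.20 ± 0.714 FPKM in saline day 28 (limma log2 change 0.66, adjusted p = 0.00683). Without the 3 libraries of high mitochondrial share the day 28 change was 0.66 again (limma adjusted p = 0.12), in a fit that called 60 of all genes.

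Usf1, a factor that binds a Ciita promoter, rose at day 14 by 0.33 (limma adjusted p = 0.0198), with 40.7 ± 4.83 FPKM in silica and 32.1 ± 3.91 FPKM in saline (SD, n = 6 each). That call was lost without silica day 14 replicate 4 or saline day 14 replicate 3, and with only the day 14 libraries in the fit. Ifngr1, a chain of the interferon gamma receptor, fell at day 28, with 113 ± 15.8 FPKM in silica and 138 ± 8.47 FPKM in saline (log2 change -0.29, limma adjusted p = 0.0338). That call was lost when silica day 28 replicate 1 or 3 or saline day 28 replicate 1 or 2 was left out. It was also lost with only the day 28 libraries in the fit. Without the 3 libraries of high mitochondrial share the change was -0.27 (limma adjusted p = 0.331).

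Of the 8 genes in the table among 10 listed factors that bind class II promoters or partner CIITA, 1 rose and none fell at day 14, and none was called at day 28; the median log2 change was 0.08 at day 14 and 0.09 at day 28. Rfxap, a subunit of the RFX complex that binds the X box, averaged 8.90 ± 1.33 FPKM in silica day 14 and 5.88 ± 0.361 FPKM in saline day 14 (SD, n = 6 each; limma log2 change 0.52, adjusted p = 6.45e-04). All 6 silica libraries lay above all 6 saline libraries, with 7.44 FPKM the lowest in silica and 6.34 FPKM the highest in saline. At day 28 Rfxap had 8.08 ± 0.756 FPKM in silica and 8.45 ± 0.742 FPKM in saline, a log2 change of -0.06 (adjusted p = 0.685).

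The other genes of the class II route gave few calls. None of 10 tested endosomal processing genes, 6 costimulation genes and 2 other class II genes (RT1-DOa and RT1-Db2) was called at day 14 or day 28. Ctsd, a lysosomal protease, averaged 1007 ± 206 FPKM in silica day 14 and 755 ± 110 FPKM in saline day 14 (SD, n = 6 each), a log2 change of 0.40 (limma adjusted p = 0.13). RT1-DOa, the partner of RT1-DOb, averaged 9.52 ± 3.43 FPKM in silica day 14 and 6.72 ± 1.63 FPKM in saline day 14, a log2 change of 0.41 (limma adjusted p = 0.279). The FPKM ratio of RT1-DOa to RT1-DOb was 1.01 to 2.35 in silica day 14, against 0.576 to 1.05 in saline day 14. At day 28 it was 0.60 to 2.49 with a median of 1.03 in silica, against 0.790 to 1.80 with a median of 1.48 in saline, and the log2 change of RT1-DOa was -0.07 (limma adjusted p = 0.862).

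Markers of the cells that carry class II were measured beside these values. Of 11 dendritic cell markers, 1 rose and 1 fell at day 14 and none was called at day 28. Batf3, a factor of cross-presenting dendritic cells, rose at day 14 by 0.65 (limma adjusted p = 0.0152). Its level was low, with 1.34 to 4.59 FPKM in silica and 0.892 to 1.67 FPKM in saline. Fscn1, an actin-bundling protein of mature dendritic cells, fell at day 14 by 0.39 (limma adjusted p = 0.0221). Both calls were lost with only the day 14 libraries in the fit. The Fscn1 call was also lost without silica day 14 replicate 5 or 6 or saline day 14 replicate 2. The summed dendritic markers ran from 65.9 to 93.7 FPKM in silica day 14, against 78.9 to 94.0 FPKM in saline day 14. They ran from 68.9 to 79.8 FPKM in silica day 28, against 68.0 to 98.0 FPKM in saline day 28.

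Of 11 macrophage markers none was called at day 14 and 1 rose at day 28: Csf1r, the receptor for macrophage colony-stimulating factor, by 0.56 (limma adjusted p = 0.0495). That call was lost when any of 18 of the 24 libraries was left out, and the change was 0.23 without the 3 libraries of high mitochondrial share. The summed macrophage markers ran from 193 to 302 FPKM in silica day 28, against 156 to 327 FPKM in saline day 28. None of 9 B cell, 8 T cell and 7 lymphoid follicle markers tested was called at either day. The summed T cell markers ran from 88.1 to 134 FPKM in silica day 28, against 50.4 to 163 FPKM in saline day 28. The summed B cell markers ran from 30.2 to 119 FPKM in silica day 28, against 26.8 to 48.8 FPKM in saline day 28. No marker in the table of these 5 cell lists was at 0 throughout a group, and their part in the class II values was not tested.

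Of 9 type 2 cell markers Etv5 rose at day 28 by 0.50 (limma adjusted p = 0.0401), and of 5 tested markers of other lung cells Scgb1a1, a club cell secretory protein, fell by 1.23 (adjusted p = 0.0291). Both calls were lost without the 3 libraries of high mitochondrial share (adjusted p = 0.573 and 0.392). Leaving out 1 library at a time lost the Etv5 call for 9 of the 24 libraries, all of day 28. It lost the Scgb1a1 call for 4 of them, silica day 28 replicates 3 and 4 and saline day 28 replicates 1 and 2. None of 5 tested heart muscle markers was called, although their sum was 1957 FPKM in silica day 28 replicate 1 and at most 744 FPKM in the other 23 libraries.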

How the data were processed

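Poly-A RNA of whole lung was sequenced, and the authors deposited a table of FPKM per gene and library. The tools are, per the submitters' processing notes, HISAT2 2.1.0, HTSeq 0.9.1, FastQC 0.11.9 and cutadapt 4.0, and the builds rn6 and Rnor_6.0; the gene models and the use of strand are not given in the sources used here. The authors' deposited table also holds log2 fold changes, the same changes as linear ratios, p-values and FDR values for 3 comparisons, with a tool that is not given in the sources used here. Of these the FDR was used.

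Values were analysed as log2(FPKM + 1), so that changes of low genes are understated. The 20856 genes that reached 0.5 FPKM in 6 or more libraries were tested with limma 3.58.1 (limma-trend, two-sided) in R 4.3.3, in 1 fit of 4 group means over 24 libraries, with calls at an adjusted p (Benjamini-Hochberg) below 0.05. The fit was tested on simulated data. These were drawn without differences in mitochondrial share between libraries, so they cannot speak to its effect on the calls. Whole reads were recovered from the FPKM steps for 100.0% of IDs with a nonzero value, at a tolerance of 0.02 read, and served for depth, limma-voom and the mitochondrial percent (37 genes). For the 9 genes these reads ranged from 326 upwards per library, so that counting error was small beside the spread between rats. Correlations used Python 3.11.15 with scipy 1.17.1.

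The genes, the lists and the tests were chosen with earlier results of these data known. All 9 genes are named; of each other list, the genes called in a silica contrast, or else at most the 2 with the smallest p. Genes of the lists missing from the table under those names were left out. The labels call the 6 samples of a group biological replicates. The 36 pairs of libraries with the same replicate number in 2 groups had deviations correlated at a mean of -0.023, with 3 above 0.1, and no pairing of rats was assumed. Alternatives were the pseudocount, the filter, the groups in the fit, scaling, the mitochondrial percent, limma-voom, the replicate number, the threshold and each library left out.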

Additional observations from a re-analysis of the deposited data

Results flagged for a closer look

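Of 36 sets of 6 libraries, 1 per gene and group, 4 held a library set apart from the rest by Dixon's criterion on the log2(FPKM + 1) scale; chance gives about 1 in 20. RT1-Da had 662 FPKM in silica day 14 replicate 4, where the other 5 had 442 to 509 FPKM. RT1-Bb had 66.2 FPKM in silica day 28 replicate 6, where the other 5 had 178 to 306 FPKM. RT1-DOb had 16.2 FPKM in silica day 28 replicate 1, where the other 5 had 4.10 to 6.67 FPKM; the summed B cell markers of that library, 119 FPKM, and its summed lymphoid follicle markers, 192 FPKM, were the highest of the 24, as were its summed heart muscle markers, 1957 FPKM against at most 744 FPKM elsewhere. Ciita had 12.0 FPKM in saline day 28 replicate 5, where the other 5 had 4.25 to 6.34 FPKM.

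For 7 genes of the other lists the silica effect differed between the days by limma, where 9.93% of all genes tested were called in this contrast. Of 11 interferon gamma genes tested, 1 called difference was positive and 2 were negative. For 8 promoter factors these counts were 1 and 1, for 11 dendritic markers 0 and 1, and for 5 other lung markers 1 and 0. None was called of 10 endosomal processing, 6 costimulation and 2 other class II genes. Nor was any of 11 macrophage, 9 B cell, 8 T cell, 9 type 2 cell, 7 follicle and 5 heart muscle markers. The 7 are named because they were called. The difference, day 28 minus day 14 on the log2 scale, was 0.56 for Nfya, a subunit of the Y box factor NF-Y (adjusted p = 0.0192), -0.57 for Rfxap (0.0115) and -0.54 for Usf1 (0.0122). It was 0.43 for Jak1 (adjusted p = 0.0285), -0.40 for Ifngr1 (0.0457), -0.74 for Batf3 (0.0381) and 0.78 for Cdh5, an endothelial cadherin (0.0474). Mean FPKM moved more between the days in saline than in silica for Nfya, Rfxap, Jak1 and Cdh5. From day 14 to day 28, Nfya went from 16.2 to 11.8 FPKM in saline and from 13.0 to 14.4 FPKM in silica. Jak1 went from 73.9 to 56.2 FPKM in saline and from 64.3 to 65.5 FPKM in silica. The mean moved by a similar size in both treatments for Usf1 and Batf3, and more in silica for Ifngr1. Without the 3 saline day 28 libraries of high mitochondrial share none of the 7 remained past the threshold, with Rfxap at -0.51 (adjusted p = 0.0888).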

How the results depend on the processing

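Over 33 alternatives, the count of class II genes called stayed at 0 in silica against saline at day 14 and in silica day 28 against day 14. Leaving out 1 library at a time gave 0 to 3 in silica against saline at day 28, 0 to 2 in the difference of the silica effects and 0 to 2 in saline day 28 against day 14, all through saline day 28 replicate 5 except 1 through silica day 28 replicate 6. With the replicate block, the count was 0 in all 5 contrasts. Of Ciita's correlations, 4 were past the threshold, 0 without the 3 saline day 28 libraries of high mitochondrial share, and 0 to 5 with 1 library left out. The cause was not tested. Of 4190 further values, 3945 kept their side of the threshold, 230 lost it and 15 gained it. None that was past the threshold in either fit changed sign. Changes of sign between values not past it were counted as kept, as for RT1-Da at day 28. Its log2 change was 0.41, and -0.03 without the 3 saline libraries of high mitochondrial share. Over all genes, the 911 calls between silica and saline at day 14 became 1444 with the mitochondrial percent as a term. The 2071 of the difference became 1381 with no filter on low values and 1227 with the replicate block, and the 5255 between the saline groups became 35 with the mitochondrial percent. Leaving out 1 library gave 993 (without saline day 28 replicate 2) to 4429 (without saline day 28 replicate 5) where 2872 were called at day 28. The fit on only the groups compared was not possible for the difference, which uses all 4 groups. For RT1-Bb, the gene of the 9 with the widest interval, the change at day 28 was 0.77. Its unadjusted 95% interval ran from -0.10 to 1.64 and so included 0. The size of change that could be detected was not assessed.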
